A study of Mus musculus with 14 samples.

Results

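The 33 genes described here code for the proteins that fold, oxidise, inspect and discard secretory proteins in the endoplasmic reticulum (ER), and for the sensors that answer when that work falls behind. They were chosen by name and role and not by any measured value. A probe was taken as a member when the platform annotation gave it a single gene symbol and that symbol, updated through its Entrez identifier, was among the 33. Such a probe was found for 32 of the 33 genes, out of 15099 genes with a singly named probe. Hspa5 had 2, so that 33 of the 23232 probes on the array were members. Manf, a secreted stress protein, was not analysed here.

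The samples were 4 stable lines made from MIN6, an insulin-secreting mouse beta-cell line, at passage 24, and all lines were kept for 4 days in 5 mM glucose. Sir2OE1 (3 arrays) and Sir2OE2 (4 arrays) carried a retrovirus with mouse Sirt1, an NAD-dependent deacetylase, and the neomycin resistance gene, were held in 280 µg/ml of G418, and shared 1 control, the pooled RNA of the Neo1 and Neo2 lines. Sir2KD1 (3 arrays) and Sir2KD2 (4 arrays) had received vectors for 2 small interfering RNAs against Sirt1, were held in 400 µg/ml of G418, and shared the mU6pro line as control. Each of the 14 two-colour arrays set a line against its control, with the channels exchanged on 7 of them, and asked which transcripts differ when Sirt1 is raised or lowered. Both lines of a kind were compared with the same control, so their values are not independent of each other. Each line stands for itself, and the spread among control lines is not in the test. Nothing in the labels says that slides of 1 line came from separate cultures, so the p-values cover only the array-to-array spread, part or all of which may be technical.

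A beta cell makes insulin at a rate that loads the ER heavily, and insulin needs disulfide bonds before it can leave. When unfolded protein builds up, the chaperone BiP (Hspa5) lets go of the sensors PERK (Eif2ak3), IRE1 (Ern1) and ATF6. PERK slows translation, IRE1 splices the mRNA of Xbp1 into that of an active transcription factor, and cleaved ATF6 and spliced XBP1 then raise the transcription of chaperones, oxidases and degradation factors. Many of those target genes carry a promoter motif called the ER stress response element (ERSE), which NF-Y and ATF6 or XBP1 occupy together.

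The motif is printed because 10 of the members carry it. It was not used to choose them, but the list includes known targets of the stress response. Its share among them is therefore not an independent finding. Promoter windows of 300 bases, from 250 before to 50 after the transcription start, came from RefSeq on mouse build GRCm38.p6, and 28 of the 33 genes had one. Atf6, Hyou1, Manf, Derl1 and Sec61a1 had no entry. The ERSE, read on both strands as CCAAT, any 9 bases and CCACG, was found in 10 of these 28 genes and in 37 of all 27025 genes with a window (0.137%). The shorter ERSE-II, in which the inverted CCAAT box ATTGG stands 1 base before CCACG, was found in 2 of 28 and in 12 of all genes (0.0444%). The element UPRE, TGACG directly followed by TGG, was found in none of the 28 and in 193 of all genes (0.714%). Each match is given 5′ to 3′ along the motif, with the defining bases in capitals.
Hspa5: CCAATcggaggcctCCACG
Hsp90b1, distal: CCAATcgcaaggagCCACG
Hsp90b1, proximal: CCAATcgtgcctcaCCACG
Dnajc3: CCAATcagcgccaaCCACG
Creld2: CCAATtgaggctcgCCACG
Calr: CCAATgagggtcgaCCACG
Canx: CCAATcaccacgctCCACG
Pdia6: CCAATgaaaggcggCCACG
Ero1b: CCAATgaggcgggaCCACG
Syvn1: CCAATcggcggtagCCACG
Derl3: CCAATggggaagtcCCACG
Dnajb11, ERSE-II: ATTGGcCCACG
Herpud1, ERSE-II: ATTGGgCCACG
The match of Hspa5 lay at chr2:34772025-34772043, that of Calr at chr8:84847075-84847093 and that of Derl3 at chr10:75893242-75893260. Along the gene the Hspa5 match ran from -65 to -47 with the start as 0, on the strand of transcription. Those of Calr and Derl3 ran from -162 to -144 and from -156 to -138 on the other strand. A match describes the letters only. The whole window of Derl3, the member that passed the test below, is given on its plus strand (chr10:75893148-75893447) with the inverted match in capitals.
Derl3 promoter: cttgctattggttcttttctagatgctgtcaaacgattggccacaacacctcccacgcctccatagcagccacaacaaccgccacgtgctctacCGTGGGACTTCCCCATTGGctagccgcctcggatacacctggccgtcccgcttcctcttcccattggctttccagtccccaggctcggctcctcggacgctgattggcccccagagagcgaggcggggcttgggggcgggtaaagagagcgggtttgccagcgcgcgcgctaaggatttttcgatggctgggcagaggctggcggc

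The measured quantity was a log2 ratio of the channels, which the authors had centred for each probe. It was turned so that every array reads channel 2 over channel 1 as line over control. The sources used here do not say which channel stood on top, so ratios are called plus or minus and never higher or lower in the line. The turn is an assumption. Between arrays of a line with opposite channels the deposited values had a mean correlation of -0.281 over 12 pairs, and 0.182 once the centring was undone. For arrays of a line with the same channels it was 0.126 over 6 pairs, and 0.425 once the centring was undone. Centring over arrays lowers such correlations by itself, so the minus sign does not settle the turn. Counts of sides over all 14 arrays and differences between overexpression and knockdown further assume that the ratio was formed the same way up in both kinds, so such differences are also given with the knockdown ratios turned. A ratio gives no level, so neither the abundance of a member nor the beta-cell identity of the lines could be read from these values. The Sirt1 probe itself passed the test in no line, with log2 ratios of 0.08 in Sir2OE1, -0.33 in Sir2OE2, -0.10 in Sir2KD1 and 0.12 in Sir2KD2. Of 11 beta-cell marker probes, 2 were called in Sir2OE1, 2 in Sir2OE2, 6 in Sir2KD1 and 3 in Sir2KD2. Of 7 acinar and duct markers, 2, 2, 3 and 1 were called in the same order, and their ratios lay on both sides in every line. The pair of Ucn3 probes among the beta-cell markers disagreed, with 2.86 and -0.955 in Sir2KD1 and 2.62 and -0.397 in Sir2KD2. Iapp had -0.21, -0.41, 0.07 and 0.045 by line, which match an Hspa5 probe that carries a fixed ratio (below). Whether the marker shifts bear on the members was not tested.

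The folding and stress genes gave 1 call in the 4 lines, and their ratios were small. A probe was called when the Benjamini-Hochberg adjusted p of limma, taken over 23230 probes, was under 0.05. In Sir2OE1 the test called 1 of 33 members, Derl3, where it called 1.06% of all probes. It called 0 of 33 in Sir2OE2 (2.81% of all probes), 0 in Sir2KD1 (3.59%) and 0 in Sir2KD2 (1.34%). At an unadjusted p under 0.05 the members numbered 7, 8, 4 and 3 in the same order, which is 21.2%, 24.2%, 12.1% and 9.09% of them. The corresponding shares of all probes were 9.61%, 13.2%, 16.8% and 13.4%. Without the probes that carry a fixed ratio (below) the members numbered 7 of 28, 6 of 28, 4 of 31 and 3 of 31. A count of 0 or 1 among 33 is near the share called over all probes, and so says nothing particular to these genes.

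Of the 132 pairs of a member probe and a line, 124 had a log2 ratio under 0.5 in size. These include every pair whose probe carries a fixed ratio (below) and so holds no information on its gene. The 8 at or above 0.5 were Derl3, Pdia4, Syvn1 and Pdia6 in Sir2OE1, Derl3 and Ern1 in Sir2KD1, and Ern1 and Pdia6 in Sir2KD2. The 95% interval stayed within a 2-fold change in either direction for 124 of the 132 pairs. The pairs that reached past it were Pdia4 and Derl3 in Sir2OE1, Ern1 in both knockdown lines, and Pdia6 in all 4 lines. By line 30, 32, 31 and 31 of the 33 members (90.9%, 97%, 93.9% and 93.9%) had an interval within 2-fold, beside 73.4%, 80.3%, 66.2% and 77.9% of all probes. Without the fixed-ratio probes these were 25 of 28, 27 of 28, 29 of 31 and 29 of 31. The members' median standard error was 0.149, 0.126, 0.149 and 0.126, beside 0.221, 0.187, 0.221 and 0.187 over all probes. Among 154 probes of other ER genes (below) the shares within 2-fold were 94.2%, 92.9%, 91.6% and 94.8%. The high share goes with a smaller error and is not particular to the members.

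**Figure D1:**
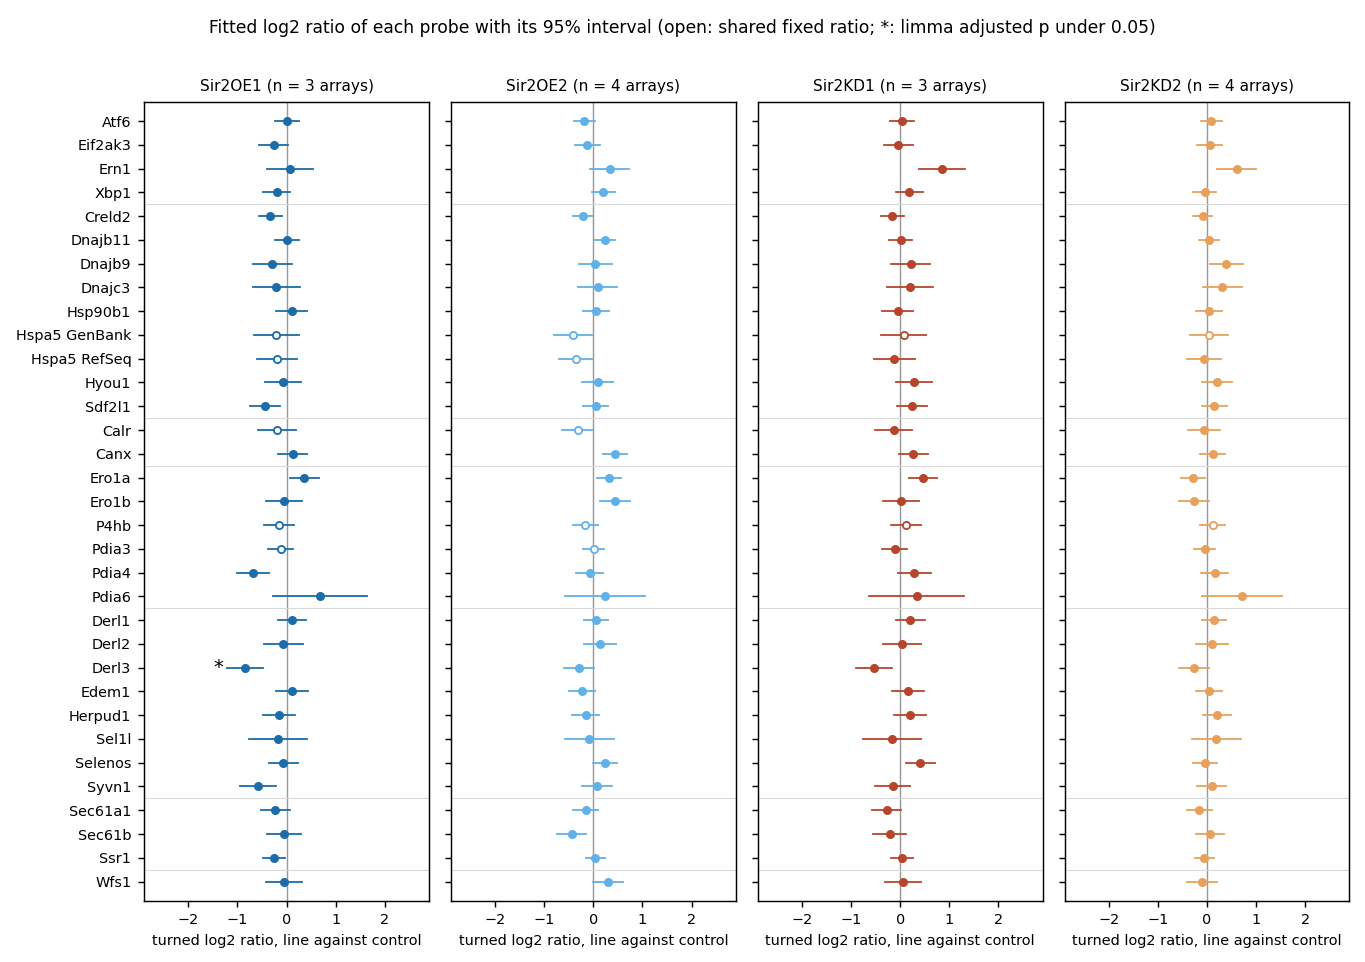
Fitted log2 ratio of each of the 33 member probes (rows, ordered by role) in each of the 4 lines (panels), with the 95% interval as a bar. Open points mark probes that carry the shared fixed ratio in that kind of line, and the star marks Derl3 in Sir2OE1, the only call. Most points lie within 0.5 of 0.

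The median size of the members' log2 ratio was 0.182 in Sir2OE1, beside 0.179 over all probes. It was 0.186 beside 0.165 in Sir2OE2, 0.161 beside 0.226 in Sir2KD1, and 0.108 beside 0.180 in Sir2KD2. The members thus lay close to the bulk of probes in the overexpressing lines, and below it by value in the knockdown lines. The 154 probes of other ER genes (below) had 0.158 in Sir2KD1 and 0.116 in Sir2KD2, so this was not particular to the members. Without the fixed-ratio probes (below) the members had 0.186 and 0.108 in these lines. With sign, the members' median was -0.156 in Sir2OE1, where 24 of 33 probes were on the minus side, and 0.043, 0.062 and 0.056 in Sir2OE2, Sir2KD1 and Sir2KD2. Without the 5 probes that carry a fixed ratio (below), the Sir2OE1 median was -0.065 with 19 of 28 on the minus side. Over all probes 11677 of 23230 were on the minus side in Sir2OE1, at a median of -0.002. Among the 154 probes of other ER genes 61 were, at a median of 0.049.

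**Figure D2:**
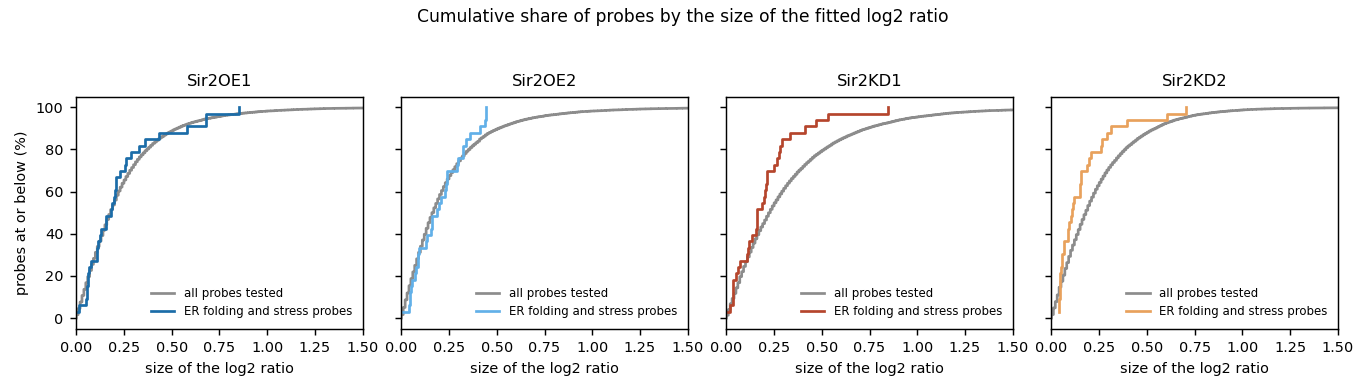
Cumulative share of probes (y axis, percent) against the size of the fitted log2 ratio (x axis) in each line, for the 33 members and for all probes tested. The curves run together in the overexpressing lines and the members' curve rises sooner in Sir2KD1 and Sir2KD2, where the medians were 0.161 and 0.108 beside 0.226 and 0.180. Probes of other ER genes, which are not drawn, had medians of 0.158 and 0.116 in those lines.

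Several of the members that define the ER chaperone system carried a ratio that was not their own. With the centring undone, every complete probe gave whole-number percent ratios of the channels, and 56 probes showed the same percents on all 7 overexpression arrays. These percents were 82, 95 and 100 on slides 1 to 3 of Sir2OE1, and 107, 105, 138 and 255 on slides 1 to 4 of Sir2OE2. A probe was taken to carry this fixed ratio when at least 5 arrays of a kind were within 1 percentage point of it. In the overexpression arrays 5 of 33 member probes did so (15.2%), namely both probes of Hspa5 and those of Calr, P4hb and Pdia3, beside 329 of 23232 probes in all (1.42%). In the knockdown arrays 2 did so (6.06%), the GenBank-annotated probe of Hspa5 and that of P4hb, beside 173 of 23227 (0.745%). The values of such probes were read as holding no information on the gene, an inference from identical numbers and not from a scanner record.

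The GenBank-annotated Hspa5 probe read 82, 95 and 100 percent on the Sir2OE1 arrays and 107, 105, 138 and 256 on the Sir2OE2 arrays. It stood at the shared percent on 7 of 7 arrays of each kind. The RefSeq-annotated Hspa5 probe read the same percents except on slide 4 of Sir2OE2, where it read 220, and stood at the shared percent on 3 of 7 knockdown arrays. Calr, the lectin chaperone calreticulin, followed on 6 of 7 overexpression arrays and read 199 on the remaining one. P4hb, the classical protein disulfide isomerase, followed on 6 of 7 overexpression and 5 of 7 knockdown arrays. Pdia3, the isomerase that works with the lectin chaperones, followed on 5 and 3. Hsp90b1, the ER member of the HSP90 family, stood at the shared percent on 2 and 3 arrays only and was kept as an ordinary probe.

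**Figure D3:**
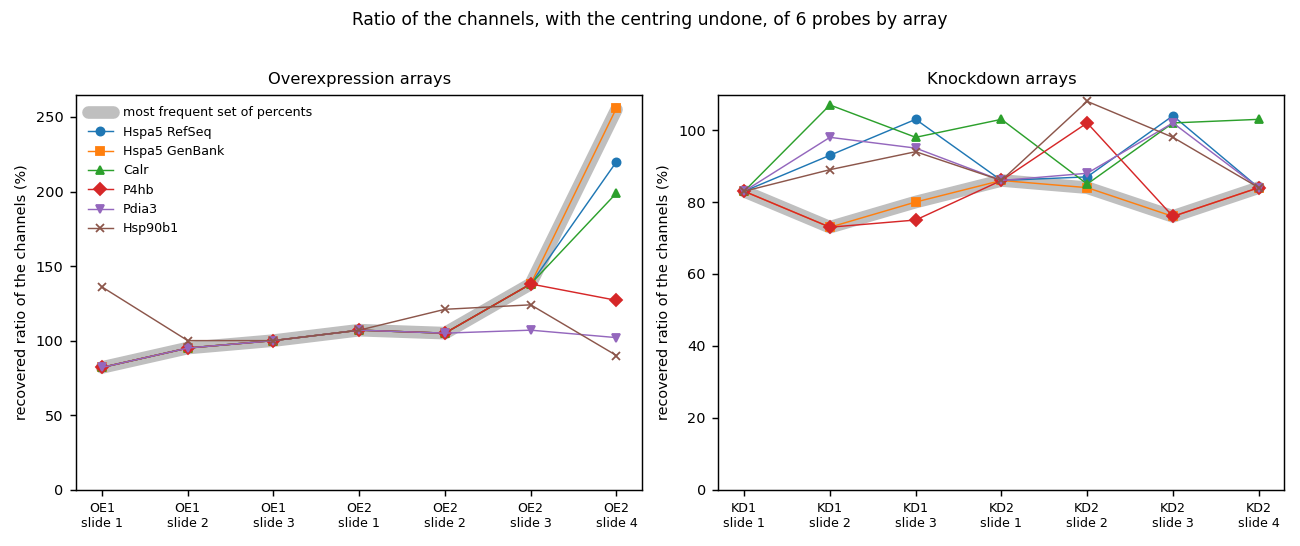
Percent ratio of the channels (y axis) on each of the 14 arrays (x axis) for Hspa5 (2 probes), Calr, P4hb, Pdia3 and Hsp90b1, with the most frequent set of percents as a grey line. The GenBank-annotated Hspa5 probe follows that set on all arrays, up to 256 percent on slide 4 of Sir2OE2 where the set has 255.

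Among the stress sensors, Ern1 had the largest fitted ratios in both knockdown lines. Ern1 codes for IRE1-alpha, the kinase and RNase that splices Xbp1 mRNA. On the 3 arrays of Sir2KD1 its turned log2 ratio was 0.97, 0.75 and 0.80, and on the 4 of Sir2KD2 it was 0.52, 0.61, 0.47 and 0.82. All 7 knockdown arrays lay on the plus side. Before centring, the 3 knockdown arrays with the line in channel 2 read 253, 185 and 197 percent and the 4 with the line in channel 1 read 77, 74, 93 and 73. On Sir2OE1 the values were -0.03, -0.25 and 0.47, and on Sir2OE2 they were 0.26, 0.66, -0.33 and 0.75, with both signs in each line.

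In Sir2KD1 the fitted Ern1 ratio of 0.84 ± 0.21 (SE, 3 arrays) had a limma adjusted p of 0.0588. In Sir2KD2 the ratio of 0.61 ± 0.18 (SE, 4 arrays) had an adjusted p of 0.16. Neither passed the test. It was 0.08 and 0.34 in Sir2OE1 and Sir2OE2, with adjusted p of 0.974 and 0.49. In a contrast added after these values were seen, the mean of both knockdown lines was 0.73 ± 0.14 (SE, 7 arrays), a 1.65-fold ratio with adjusted p = 0.0147. That contrast called 1 of 33 members, Ern1, beside 4.54% of all probes, and both lines in it share the mU6pro control. The call was lost, with 0 members left, without slide 1 of Sir2KD1, and with the centring undone, no turn and no dye term. Overexpression minus knockdown was -0.52 with adjusted p = 0.251. With the knockdown ratios turned it was 0.93 with adjusted p = 0.021, so whether the kinds differ in Ern1 depends on the direction, which is not settled.

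The other sensors and Xbp1 gave no call. Xbp1, the mRNA that IRE1 splices, was measured as a whole, with no account of its spliced form. It had values of -0.42, -0.07 and -0.10 on the Sir2OE1 arrays and of 0.36, 0.20, 0.19 and 0.04 on the Sir2OE2 arrays. The knockdown values were 0.20, 0.27 and 0.09 in Sir2KD1 and -0.12, -0.02, -0.15 and 0.12 in Sir2KD2. Its fitted ratios were thus -0.20, 0.20, 0.19 and -0.04 in the order of the lines, with adjusted p from 0.491 to 0.92. The signs of the overexpressing lines were opposite, and their difference of -0.40 had adjusted p = 0.594.

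Eif2ak3, the kinase that lowers translation under ER stress, read -0.19, -0.16 and -0.42 in Sir2OE1 and -0.24, -0.13, -0.18 and 0.04 in Sir2OE2. In Sir2KD1 it read 0.06, -0.37 and 0.16, and in Sir2KD2 0.22, -0.06, 0.04 and 0.02. Its fitted ratios ran from -0.26 to 0.06, and 6 of 7 overexpression arrays were minus. Overexpression minus knockdown was -0.21, with adjusted p = 0.508. Atf6, the sensor that is cut in the Golgi to free a transcription factor, read 0.14, 0.01 and -0.11 in Sir2OE1 and -0.36, -0.13, -0.10 and -0.15 in Sir2OE2. Its knockdown values lay between -0.07 and 0.16. The fitted Atf6 ratios ran from -0.19 to 0.09, with adjusted p of 0.464 or above.

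The lumenal chaperones and their partners gave no call in any line. Hspa5, whose protein BiP binds unfolded chains and holds the sensors silent, had fitted ratios of -0.20, -0.36, -0.12 and -0.06 for the RefSeq-annotated probe. The GenBank-annotated probe had -0.21, -0.41, 0.07 and 0.04. The overexpression values of both are the fixed ratio described above, apart from slide 4 of Sir2OE2 for the RefSeq-annotated probe. The knockdown arrays of the RefSeq-annotated probe, of which 3 of 7 sat at the shared percent, ran from -0.20 to 0.11. Hsp90b1, which folds client receptors and growth factors, stayed between -0.05 and 0.11 in all lines.

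The BiP co-chaperones Dnajb9, Dnajc3 and Sdf2l1 had the wider values of this group. Dnajb9, a DnaJ protein that directs BiP to misfolded chains, ran from -0.29 in Sir2OE1 to 0.40 in Sir2KD2. Sdf2l1, which works with BiP and Dnajb11, ran from -0.43 in Sir2OE1 to 0.25 in Sir2KD1, and 7 of 7 knockdown arrays were plus. Dnajc3, which damps the phosphorylation of eIF2-alpha, ran from -0.21 in Sir2OE1 to 0.31 in Sir2KD2. Their lowest adjusted p over the 4 lines was 0.263. Hyou1, the exchange factor of BiP, and Dnajb11 stayed between -0.06 and 0.28. Creld2, a small stress-induced protein, was minus on 13 of 14 arrays at fitted ratios from -0.33 to -0.09, and its mean over the overexpressing lines had adjusted p = 0.0693.

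Of the lectin chaperones, which hold newly glycosylated proteins until they are folded, only Canx was outside the fixed ratio in the overexpressing lines. Calr carried the fixed ratio there, and had -0.13 in Sir2KD1 and -0.07 in Sir2KD2. Canx codes for membrane-bound calnexin. It read 0.39, 0.02 and -0.04 in Sir2OE1 and 0.20, 0.46, 0.36 and 0.72 in Sir2OE2. In Sir2KD1 it read 0.28, 0.24 and 0.27, and in Sir2KD2 0.13, 0.10, 0.16 and 0.07. It was plus on 13 of 14 arrays. Its largest fitted ratio was 0.44 ± 0.11 (SE, n = 4) in Sir2OE2, with limma adjusted p = 0.0749, and the difference between the overexpressing lines was -0.31 with adjusted p = 0.802.

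None of the 6 enzymes that form disulfide bonds was called in a line, and Pdia4 had the lowest adjusted p among them in Sir2OE1. Pdia4 codes for ERp72, a protein disulfide isomerase. It read -0.57, -1.13 and -0.40 in Sir2OE1 and 0.10, -0.17, -0.02 and -0.22 in Sir2OE2. In the knockdown lines it read 0.23, 0.48 and 0.18 in Sir2KD1 and 0.04, 0.24, 0.20 and 0.14 in Sir2KD2. All 7 knockdown arrays were plus and 6 of 7 overexpression arrays were minus. Its fitted ratio was -0.68 ± 0.15 (SE, n = 3) in Sir2OE1, with limma adjusted p = 0.0722, and -0.08, 0.29 and 0.16 in the other lines. Overexpression minus knockdown was -0.60, with a 95% interval from -0.91 to -0.29 and adjusted p = 0.0503, just above the threshold. This contrast called 0 of 33 members and 2.66% of all probes. With the knockdown ratios turned the Pdia4 difference was -0.16 with adjusted p = 0.619.

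Ero1a and Ero1b code for the oxidases that recharge the disulfide isomerases, and Ero1b is the form abundant in beta cells. Ero1a read 0.46, 0.36 and 0.25 in Sir2OE1, 0.22, 0.32, 0.16 and 0.60 in Sir2OE2, and 0.34, 0.59 and 0.49 in Sir2KD1. On the 4 arrays of Sir2KD2 it read -0.24, -0.26, -0.51 and -0.14, so the knockdown lines lay on opposite sides on every array. Sir2KD1 minus Sir2KD2 was 0.76 ± 0.17 (SE), with limma adjusted p = 0.0912. Over all members that contrast called 0 of 33, beside 0.689% of all probes. Ero1b read 0.46, 0.43, 0.48 and 0.40 in Sir2OE2, which fitted to 0.44 with adjusted p = 0.155. Its fitted ratios were -0.06, 0.02 and -0.26 in the other lines.

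Pdia6, the isomerase known to bind IRE1, had the widest spread of the members. Its arrays ran from -0.39 to 1.55 in Sir2KD2 and from -0.69 to 1.04 in Sir2OE2. With a standard error of 0.44 in Sir2OE1 and 0.37 in Sir2KD2, its fitted ratios of 0.68 and 0.71 had adjusted p of 0.741 and 0.454. The intervals of this gene leave a 2-fold ratio possible in each line. P4hb and Pdia3 stayed between -0.16 and 0.12, with 6 and 5 of their 7 overexpression arrays at the fixed ratio.

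Among the genes of ER-associated degradation, which draw misfolded proteins back to the cytosol for the proteasome, Derl3 gave the single call. Derl3 codes for a derlin, a membrane protein of that export route, and is a stress-induced member of the family. Its turned log2 ratio was -0.92, -0.92 and -0.73 on the 3 arrays of Sir2OE1, and -0.44, -0.05, -0.50 and -0.18 on the 4 of Sir2OE2. It was -0.29, -0.73 and -0.61 in Sir2KD1 and 0.01, -0.70, -0.15 and -0.22 in Sir2KD2. The gene was minus on 13 of 14 arrays, and the Sir2OE1 arrays lay below every array of Sir2OE2. In percent before centring, the Sir2OE1 arrays read 28 and 28 with the line in channel 2 and 88 with the line in channel 1.

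The fitted Derl3 ratio in Sir2OE1 was -0.85 ± 0.17 (SE, n = 3), a 1.81-fold ratio with limma adjusted p = 0.0389. In the other lines it was -0.29, -0.53 and -0.27, with adjusted p of 0.413, 0.119 and 0.454. Sir2OE1 minus Sir2OE2 was -0.56 with adjusted p = 0.542, so the call in 1 overexpressing line and not in the other does not show a difference between them. The added contrast of the mean overexpressing line gave -0.57 with adjusted p = 0.0145, and called 1 of 33 members, Derl3, beside 3.44% of all probes. The mean of the knockdown lines was -0.40 with adjusted p = 0.0673. Overexpression minus knockdown was -0.17 with adjusted p = 0.673, and with the knockdown ratios turned it was -0.97 with adjusted p = 0.00421. The call in Sir2OE1 was kept in 2 of 14 fits that each left out 1 array, those without slide 1 of Sir2KD1 or slide 2 of Sir2KD2. Over the 14 fits the ratio ran from -0.97 to -0.83 and the adjusted p from 0.0177 to 0.212. Fitted with the overexpression arrays alone, the adjusted p was 0.0894. The call for the mean overexpressing line was lost, leaving 0, without any 1 of the 3 slides of Sir2OE1 or slide 3 of Sir2OE2.

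The remaining degradation genes gave no call. Syvn1, the ubiquitin ligase HRD1, read -0.45, -1.08 and -0.28 in Sir2OE1, which fitted to -0.58 with limma adjusted p = 0.177, and stayed between -0.16 and 0.09 in the other lines. Its difference between the overexpressing lines was -0.66 with adjusted p = 0.378, the lowest of any member in that contrast, which called 0 of 33 members beside 0.323% of all probes. Selenos, a selenoprotein that anchors the export machinery, read 0.38, 0.41 and 0.45 in Sir2KD1 and 0.01, -0.05, -0.12 and 0.01 in Sir2KD2. It fitted to 0.41 in Sir2KD1, with adjusted p = 0.14, and the difference between the knockdown lines was 0.45 with adjusted p = 0.338. Herpud1, which organises the HRD1 complex, fitted to -0.16 in both overexpressing lines and to 0.20 and 0.21 in the knockdown lines. Edem1, Sel1l, Derl1 and Derl2 stayed between -0.23 and 0.21.

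The translocon genes, whose products form the channel through which chains enter the ER, gave no call, and all 3 had a minus value in Sir2OE1. Sec61b, a small subunit of the channel, read -0.42, -0.25, -0.33 and -0.77 in Sir2OE2, which fitted to -0.44 with limma adjusted p = 0.13. In the other lines its fitted ratio was -0.06, -0.22 and 0.07. Sec61a1, the pore subunit, was minus on 13 of 14 arrays at fitted ratios from -0.27 to -0.15, with adjusted p of 0.349 or above. Ssr1, of the translocon-associated complex, stayed between -0.26 and 0.04. Wfs1, an ER membrane protein whose loss causes Wolfram syndrome with diabetes, ran from -0.10 in Sir2KD2 to 0.29 in Sir2OE2 with adjusted p of 0.403 or above.

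**Figure D4:**
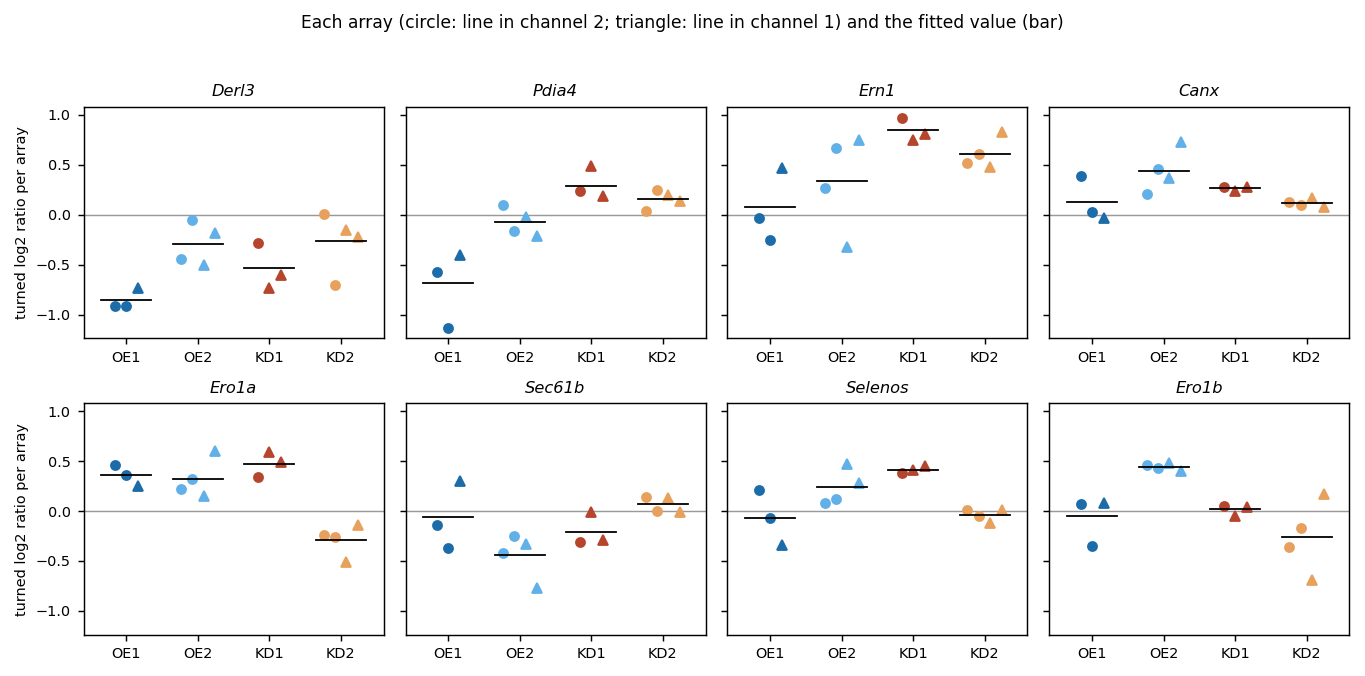
Turned log2 ratio (y axis) on each array of each line (x axis) for Derl3, Pdia4, Ern1, Canx, Ero1a, Sec61b, Selenos and Ero1b, with circles for arrays with the line in channel 2, triangles for arrays with it in channel 1, and a bar at the fitted value. Derl3 lies below 0 on 13 of 14 arrays, Ern1 above 0 on all 7 knockdown arrays, and Ero1a on opposite sides of 0 in the knockdown lines.

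Between the kinds of line, the sides of the members depended on the direction of the knockdown ratios. As read here, overexpression minus knockdown was negative for 25 of 33 members, at a median of -0.148, and for 12039 of 23230 probes in all (51.8%). Without the fixed-ratio probes it was negative for 21 of 28, and no member passed the test. With the knockdown ratios turned it was negative for 15 of 33 members and 10 of 28, at a median of 0.042 over the 33. Over all probes the turned contrast was negative for 11531 of 23230 (49.6%), at a median of 0.003. Of the 8 degradation genes, 8 were negative as read here and 3 when turned, and of the 9 chaperone probes, which include both of Hspa5, 7 and 3 were. The turned contrast called 3 of 33 members, beside 4.99% of all probes. These were Ern1 (0.93), Derl3 (-0.97) and Creld2 (-0.39, adjusted p = 0.0479).

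Members with and without the ERSE in their promoter were set side by side in each line. The 11 probes of the 10 genes with a match had a median log2 ratio of -0.197 in Sir2OE1, 0.054 in Sir2OE2, -0.050 in Sir2KD1 and 0.044 in Sir2KD2. The 16 probes of genes with a window and no match to any of the 3 motifs had -0.140, 0.041, 0.136 and 0.061. Derl3, the member called in Sir2OE1, has the motif, and Ern1 and Pdia4 have none in this window. These medians are given as a description, since the fixed ratios of Hspa5 and Calr are among the first and those of P4hb and Pdia3 among the second.

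The wider ER machinery, 144 further genes with 154 probes chosen by role, was called at shares near those of all probes. In Sir2OE1 1 probe was called (0.649%), in Sir2OE2 5 (3.25%), in Sir2KD1 7 (4.55%) and in Sir2KD2 1 (0.649%). The shares of all probes called were 1.06%, 2.81%, 3.59% and 1.34% in the same order. Pdia5, a further disulfide isomerase, had -1.11 in Sir2KD1 and -0.60 in Sir2KD2, with limma adjusted p of 8.21e-04 and 0.0219. Clgn, the calnexin relative calmegin, had 1.21 and 0.86 at its pair of probes in Sir2OE2, with adjusted p of 0.00124 and 0.00264, beside 0.44 for Canx. In Sir2KD1 the pair had 0.48 and 0.63, of which the latter was called with adjusted p = 0.0368. Tmbim6, an ER membrane protein that restrains IRE1 and cell death, had -0.81 in Sir2OE2 and -0.61 in Sir2KD1, with adjusted p of 0.0015 and 0.0203. Ppib, the proline isomerase cyclophilin B, had 0.43, 0.44, 0.41 and 0.43 in the 4 lines and was called in Sir2OE2 only, with adjusted p = 0.0308.

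The other genes were called in a single line each. Trib3, a target of the PERK branch, had 0.86 in Sir2OE1 with limma adjusted p = 0.0429. In Sir2KD1 the lumenal protein Erp29 had -0.60, the oligosaccharyl transferase subunit Magt1 0.60, the stress-induced Sesn2 -0.48 and the export receptor Bcap31 0.54, with adjusted p from 0.0193 to 0.0438. In Sir2OE2 Prkcsh, a subunit of glucosidase II, had 0.46 with adjusted p = 0.0478. The called members of the wider list thus lay on both sides within a line, 4 plus and 1 minus in Sir2OE2 and 3 plus and 4 minus in Sir2KD1.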

How the data were processed

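RNA of 4 lines was set against control RNA on 14 two-colour arrays. The authors deposited log2 channel ratios, centred for each probe over 6 of 7 arrays of each kind, as the values themselves showed. Undoing this gave whole-number percents for 100% of complete probes (relative tolerance 1e-05). The sources used here do not give the array software, background correction, normalization or ratio direction. Probe names came from the platform annotation, which can be old. Signs were turned where the line was in channel 1. The fit, with limma 3.58.1 (lmFit, eBayes; R 4.3.3), took all arrays, a coefficient per line and a dye term per kind, and its p-values were adjusted by Benjamini-Hochberg over 23230 probes measured at least 2 times in every line. It was tested on simulated data. Members called in any test, or else the 8 with the lowest adjusted p, were described array by array, as were Hspa5, Xbp1, Atf6, Ern1 and Eif2ak3. Members, lists and alternatives were chosen with earlier results of these data known. The values hold no intensities, so signal over background is unknown and precision is limited by how many arrays there are.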

Additional observations from a re-analysis of the deposited data

Results flagged for a closer look

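In 66 groups of 4 arrays (33 member probes in Sir2OE2 and Sir2KD2), 6 had an array far from the rest by Dixon's criterion, which chance alone meets in about 1 of 20 groups. In 5 of the 6 the array was slide 4 of Sir2OE2. There the RefSeq-annotated Hspa5 probe read -0.89 beside -0.22 to -0.15 on the other slides, and the GenBank-annotated one -1.07 beside -0.21 to -0.18. On that slide the shared fixed ratio of the overexpression arrays was 255 percent. There the GenBank-annotated probe read 256 percent, and the RefSeq-annotated probe read 220 percent, off the shared ratio. Derl2, a derlin of ER-associated degradation, read 0.58 on that slide beside -0.04 to 0.02. The BiP co-chaperone Dnajb11 read 0.13 beside 0.26 to 0.27, and Creld2 read -0.14 beside -0.24 to -0.22. The remaining array was slide 3 of Sir2KD2, where Sec61a1 read -0.03 beside -0.20 to -0.19.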

How the results depend on the processing

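Counts of members called depended on the dye term. With 1 dye term for both kinds 2 were called in Sir2OE1, 1 in Sir2OE2 (Canx), 2 in Sir2KD1, 1 in Sir2KD1 minus Sir2KD2 and 1 in overexpression minus knockdown, and 4 and 2 for the mean overexpressing and knockdown lines. With no dye term the counts were 3, 2, 4, 1, 1, 5 and 2 in that order. The slide numbers did not pair the arrays (r from -0.389 to 0.012 over 19 pairs of arrays with the same number). With the slide number as a replicate block 0 members were called in Sir2OE1 and 0 for either mean, and Derl3 in Sir2OE1 was at -1.02 with adjusted p = 0.368. Fitted with the overexpression arrays alone Sir2OE1 had 0. With the centring undone, no turn and no dye term, 2 were called in Sir2OE1 and 5 in overexpression minus knockdown. That setting called 8 for the mean overexpressing line and 0 for the mean knockdown line. With the knockdown ratios turned 3 were called between the kinds. Counts over all probes in the lines and differences changed with these settings as well (below). For the mean lines no such count is given, so their member counts cannot be set beside a share of all probes. Leaving out each array gave 0 to 1 in Sir2OE1, Sir2KD1, overexpression minus knockdown and both means. Leaving out probes with missing values or with the fixed ratio, centring arrays on their median and robust eBayes changed no count of members. Ern1 was called in Sir2KD1 without slide 3 of either overexpressing line, and Pdia4 between the kinds without slide 3 of Sir2OE1.

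With the centring undone, no turn and no dye term some probes changed sign. In Sir2KD1 they were Ero1a (-0.25) and Selenos (-0.23). In Sir2OE2 they were Ero1b (-0.36), Xbp1 (-0.03), Atf6 (0.10), RefSeq-annotated Hspa5 (0.44) and GenBank-annotated Hspa5 (0.50). This setting takes every array as already line over control and leaves any dye offset in the ratio. The cause was not tested.

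Over all probes the counts called were 247, 653, 833 and 312 in Sir2OE1, Sir2OE2, Sir2KD1 and Sir2KD2, 75 and 160 between lines and 617 between kinds. With 1 dye term they were 406 in Sir2OE1, 1315 in Sir2KD1, 541 in Sir2KD2, and 166 and 322 between lines, and with no dye term 628, 1190, 1867, 810, 282, 576 and 1317. With the replicate block they were 0, 21, 242, 31, 10, 37 and 260. Each kind alone gave 104, 219 and 65 in Sir2OE1, Sir2KD1 and Sir2KD2, and 23 and 1 between lines. With the centring undone, no turn and no dye term they were 2558, 309 and 1361 in Sir2OE1, Sir2KD1 and Sir2KD2. That setting gave 0 between the overexpressing lines and 3474 between kinds. With the knockdown ratios turned the count was 1160 between kinds. Leaving out each array gave 47 to 222 in Sir2OE1, 317 to 675 in Sir2OE2, 523 to 835 in Sir2KD1, 149 to 325 in Sir2KD2, 18 to 69 and 86 to 248 between lines. With the line as the replicate 0 probes were called between kinds by limma, where 1822 had an unadjusted p under 0.05 and 0 members did.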
